A study of Homo sapiens with 3 samples.

Results

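The factors that start and elongate protein synthesis were followed in H660 cells, an established human line of neuroendocrine prostate cancer, after exposure to JG231, an allosteric inhibitor of the chaperone HSP70. Parental H660 cells received DMSO (the vehicle), 2.5 μM JG231 or 5 μM JG231 for 24 h, and 1 RNA-seq library was made from each condition. No condition had a replicate, so no SD, interval or p-value could be given for any gene, and both doses were set against the same DMSO library. Members were taken by symbol: those starting with EIF and a digit from 1 to 6, or with EEF1 or EEF2, were kept, while symbols with a hyphen (5 genes), pseudogenes (136 rows), the eIF2α kinases and the 4E-BPs (7 genes together) were set aside. This left 62 of the 58735 genes in the table, namely 5 of eIF1, 6 of eIF2, 5 of eIF2B, 14 of eIF3, 13 of eIF4, 6 of eIF5 and eIF6, and 13 of elongation. Values of 1 member, EIF1AY, are not reported here. Of the other 61, 59 had a mean of at least 1 FPKM, the count of sequenced fragments scaled to transcript length and library depth, over the 3 libraries, and EIF4E1B and EEF1G were listed at 0 in every library.

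Translation of most mRNAs begins when eIF4F, made of the cap binder eIF4E, the scaffold eIF4G and the helicase eIF4A, prepares the mRNA and recruits a small ribosomal subunit that carries eIF1, eIF1A, eIF3, eIF5 and a ternary complex of eIF2, GTP and initiator tRNA. The complex scans to a start codon, where eIF1 holds scanning open and eIF5 stimulates GTP hydrolysis by eIF2, and eIF5B then joins the subunits. Spent eIF2 is recharged by eIF2B, and phosphorylation of its α subunit by stress kinases blocks that exchange. In elongation eEF1A delivers aminoacyl-tRNA, the eEF1B complex recharges eEF1A, and eEF2 moves the ribosome along the mRNA. Many elongation factor mRNAs begin with a terminal oligopyrimidine (TOP) stretch through which mTORC1 signalling and LARP1 control their translation.

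Changes are given as log2 of FPKM + 0.1 in a JG231 library over FPKM + 0.1 in DMSO, a scale that understates changes of low genes. Rose and fell are used for a gene above 1 FPKM in either library whose log2 change exceeded 0.25. As a stand-in for replicate error, each change was set beside the robust SD of the log2 difference between the 2 JG231 libraries over 500 genes of the closest mean FPKM. This spread ran from 0.19 to 1.13 among the members, is widest for low genes and includes any effect of dose. Depth read from the steps of the FPKM values was about 16091000 fragments for DMSO, 20384000 for 2.5 μM and 24051000 for 5 μM. The neuroendocrine markers SYP, CHGA, ENO2, NCAM1 and INSM1 were all detected. SYP had 17.7, 13.0 and 14.8 FPKM with vehicle, 2.5 μM and 5 μM, and CHGA had 45.99, 15.05 and 12.74. The luminal gene KLK3 did not reach a mean of 1 FPKM, nor did the leukocyte, endothelial and fibroblast markers PTPRC, PECAM1 and COL1A1. COL1A1 was nevertheless at 0.823, 0.745 and 1.27 FPKM, a change of 0.57 at 5 μM, and its part in the results was not tested. The sample records call the cells prostatic adenocarcinoma, whereas the series describes a neuroendocrine line. In bulk RNA a lower level per cell and fewer cells of a kind cannot be told apart.

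More translation factor transcripts rose than fell at either dose. At 5 μM, 37 of 59 members rose (62.7%) where 36.5% of the 15765 genes above 1 FPKM did, and 12 fell (20.3%) where 45.1% of all genes did. At 2.5 μM, 38 of 59 rose (64.4%) against 36.4% of 15746 genes, and 10 fell (16.9%) against 43.4%. Large rises were about as frequent among members as among all genes, and large falls were less frequent by share: 9 members rose by more than 1 on the log2 scale at 5 μM (15.3%) beside 14.7% of all genes, and 4 fell by as much (6.78%) beside 24.3%. At 2.5 μM, 6 rose by more than 1 (10.2%) beside 12.9% of all genes, and 2 fell by as much (3.39%) beside 21.7%. The median member changed by 0.45 at 2.5 μM and 0.51 at 5 μM, whereas the median of the 13785 genes of at least 1 FPKM was 0.00 and -0.01. At both doses 35 members rose (59.3%, beside 30.8% of the 13785 genes), 8 fell (13.6%, beside 31.3%), 7 stayed within 0.25, and EIF4E3 and EEF1AKMT3 moved in opposite directions. The change was larger than the spread for 42 of 59 members at 2.5 μM (71.2%) beside 61.6% of the 13785 genes, and for 44 at 5 μM (74.6%) beside 65.2%, shares not far from those of all genes.

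Part of this excess went with how strongly the members are expressed. The 4485 protein-coding genes of at least 10 FPKM had medians of 0.30 and 0.34, while the 37 members of that level had 0.55 and 0.61. Members between 10 and 30 FPKM had medians of 0.53 and 0.56 beside 0.23 and 0.25 for protein-coding genes of that band, and the 16 members between 30 and 100 FPKM had 0.61 and 0.55 beside 0.42 and 0.49. The 8 members above 100 FPKM had 0.55 and 0.76 beside 0.58 and 0.76. The 15 members between 1 and 5 FPKM had -0.33 and -0.30 beside -0.27 and -0.37. Members between 5 and 100 FPKM thus stood above other genes of their level at both doses, and the lowest and highest bands lay within 0.10 of theirs. By transcript length, members under 1000 bp (5 genes) had medians of 0.21 and 0.35 beside 0.45 and 0.64 for protein-coding genes, and the 12 of 1000 to 2000 bp had 0.63 and 0.80 beside 0.30 and 0.39. The 29 members of 2000 to 4000 bp had 0.45 and 0.49 beside 0.12 and 0.12, and the 13 longer ones had 0.18 and -0.08 beside -0.15 and -0.31. Medians of protein-coding genes declined from band to band, whereas among the members the shortest band lay below the next.

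**Figure D1:**
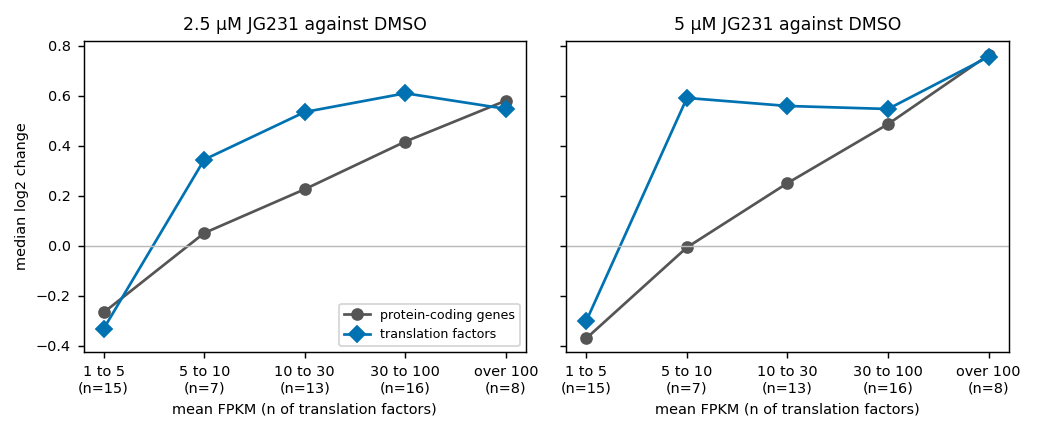
Median log2 change (FPKM + 0.1, vertical axis) of translation factors (blue diamonds) and of protein-coding genes (grey circles) in bands of mean FPKM, for 2.5 μM JG231 (left) and 5 μM JG231 (right) against DMSO. The factors lay above other genes in the bands between 5 and 100 FPKM at both doses, by the least at 30 to 100 FPKM at 5 μM (0.55 beside 0.49), and within 0.10 of them above 100 FPKM.

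The numbers that rose and fell also depended on how the libraries were scaled, for all genes as for the members. Scaling the 3 libraries to 1 shared total that leaves out mitochondrial and small RNA genes, called rescaling from here on, shifted the median gene by -0.28 at 2.5 μM and -0.37 at 5 μM, and 24 members then rose at 2.5 μM (40.7%) beside 26.2% of the 13785 genes, while 17 fell (28.8%) beside 51.2%. At 5 μM 22 rose (37.3%) beside 24.5%, and 19 fell (32.2%) beside 55.4%. The median member stayed above the median gene by 0.44 and 0.51 after rescaling, against 0.45 and 0.52 as deposited. With the trend over expression removed, 24 members rose at 2.5 μM (40.7%) beside 36.8% and 11 fell (18.6%) beside 38%, and 28 rose at 5 μM (47.5%) beside 38.3% and 16 fell (27.1%) beside 38.3%. The distance of the median member from the median gene was then 0.19 and 0.15. Genes called level in the following text are so in the values as deposited. Under every scaling and pseudocount tried, 19 of 59 members were higher by more than 0.25 at 5 μM (32.2%) beside 22% of the 13785 genes, and 7 were lower (11.9%) beside 30.2%. The stable rises were those of EIF1, EIF1B, EIF5, EIF6, EIF2A, EIF2S2, the 4 eIF2B genes EIF2B2 to EIF2B5, EIF3D, EIF3F, EIF3G, EIF3H, EIF3M, EIF4A1, EIF5AL1, EEF1D and EEF1E1. The stable falls were those of EIF2S3, EIF3C, EIF3CL, EIF4G1, EEF2K, EEF2KMT and EEF1AKMT2.

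**Figure D2:**
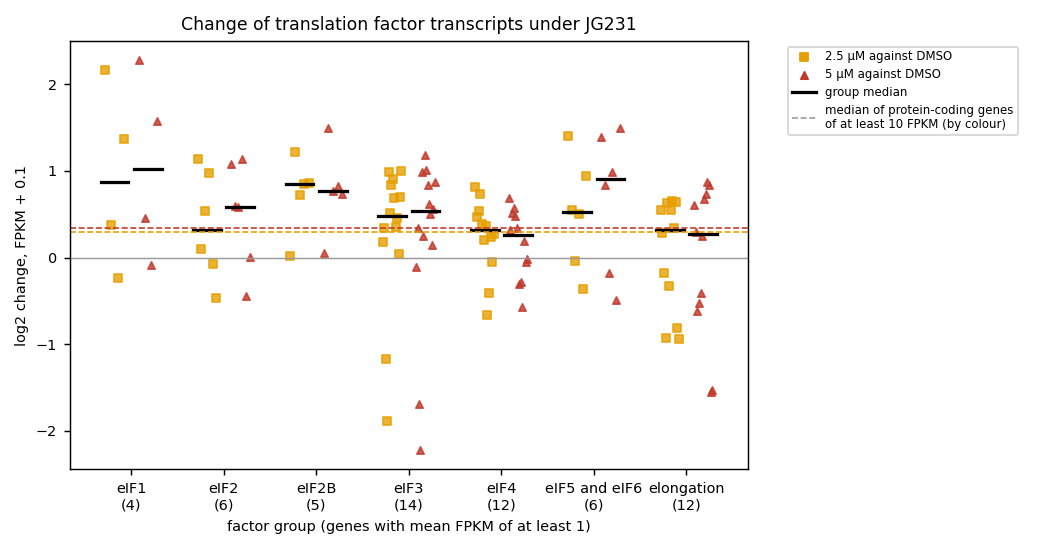
Log2 change against DMSO (FPKM + 0.1, vertical axis) of each translation factor by group, for 2.5 μM (orange squares) and 5 μM JG231 (red triangles), with the group median as a black bar and the median of protein-coding genes of at least 10 FPKM as a dashed line. The medians of eIF2B and eIF1 were the highest at 2.5 μM (0.85 and 0.87), and those of eIF4 and elongation at 5 μM (0.26 and 0.27) fell below 0 after rescaling to a total without mitochondrial and small RNA genes.

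The annotated first bases of the transcripts are shown because a TOP start is the sequence feature through which this gene family is best known to be co-regulated. A start was counted as pyrimidine-rich when its first base was C and at least 4 further bases of C or T followed, read on the transcribed strand only, in RefSeq starts on GRCh38.p14. Of the 61 members, 49 matched a RefSeq start by symbol. Such a start was found in 13 of them (26.5%) and in 5.14% of the 27305 genes with a RefSeq start, expressed or not. Among protein-coding genes of at least 10 FPKM, 339 held one and 3296 did not. Windows of 15 bases before the start and 15 from it are printed 5′ to 3′ with the pyrimidine run in capitals, first for factors that hold one.
EEF1A1, chr6:73521018-73521047 (-): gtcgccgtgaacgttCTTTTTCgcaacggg
EEF2, chr19:3985449-3985478 (-): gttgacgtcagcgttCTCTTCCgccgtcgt
EEF1B2, chr2:206159880-206159909 (+): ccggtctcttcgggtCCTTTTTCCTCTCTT
EIF4B, chr12:53006441-53006470 (+): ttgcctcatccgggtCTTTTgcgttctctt
EIF3F, chr11:7987322-7987351 (+): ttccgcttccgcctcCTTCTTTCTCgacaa
EIF2A, chr3:150546772-150546801 (+): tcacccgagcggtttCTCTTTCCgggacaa
EIF2S3, chrX:24054941-24054970 (+): ggggtgatttccttcCTCTTTTggcaacat
The pyrimidine run of EEF1B2, shown at 1 of its starts, goes on past the window. Of the 5 members whose transcripts rose by more than 1 on the log2 scale at both doses, EIF2A holds such a run, shown above, and EIF1, EIF1B, EIF5 and EIF2B2 hold none at the annotated start.
EIF1, chr17:41688870-41688899 (+): aggcaccgcccctctgccccagtcactgag
EIF1B, chr3:40309692-40309721 (+): tcggccattttgtgcgagaagccgcagcgc
EIF5, chr14:103334222-103334251 (+): gcggcggcgttgttcagtcagagcgagaac
EIF2B2, chr14:75002906-75002935 (+): gacctcgcccgccccggaagtgcaaactgt
The 13 members with a pyrimidine start (EIF2A, EIF2D, EIF2S3, EIF2S3B, EIF3D, EIF3F, EIF3K, EIF3M, EIF4A2, EIF4B, EEF1A1, EEF1B2 and EEF2) had median changes of 0.55 and 0.61, and the other 34 of at least 1 FPKM had 0.35 and 0.47. Among protein-coding genes of at least 10 FPKM, the 339 with such a start had medians of 0.50 and 0.52, and the 3296 others had 0.28 and 0.34. With the expression trend removed the order of the members turned, at 0.07 and 0.01 with a pyrimidine start and 0.20 and 0.25 without.

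**Figure D3:**
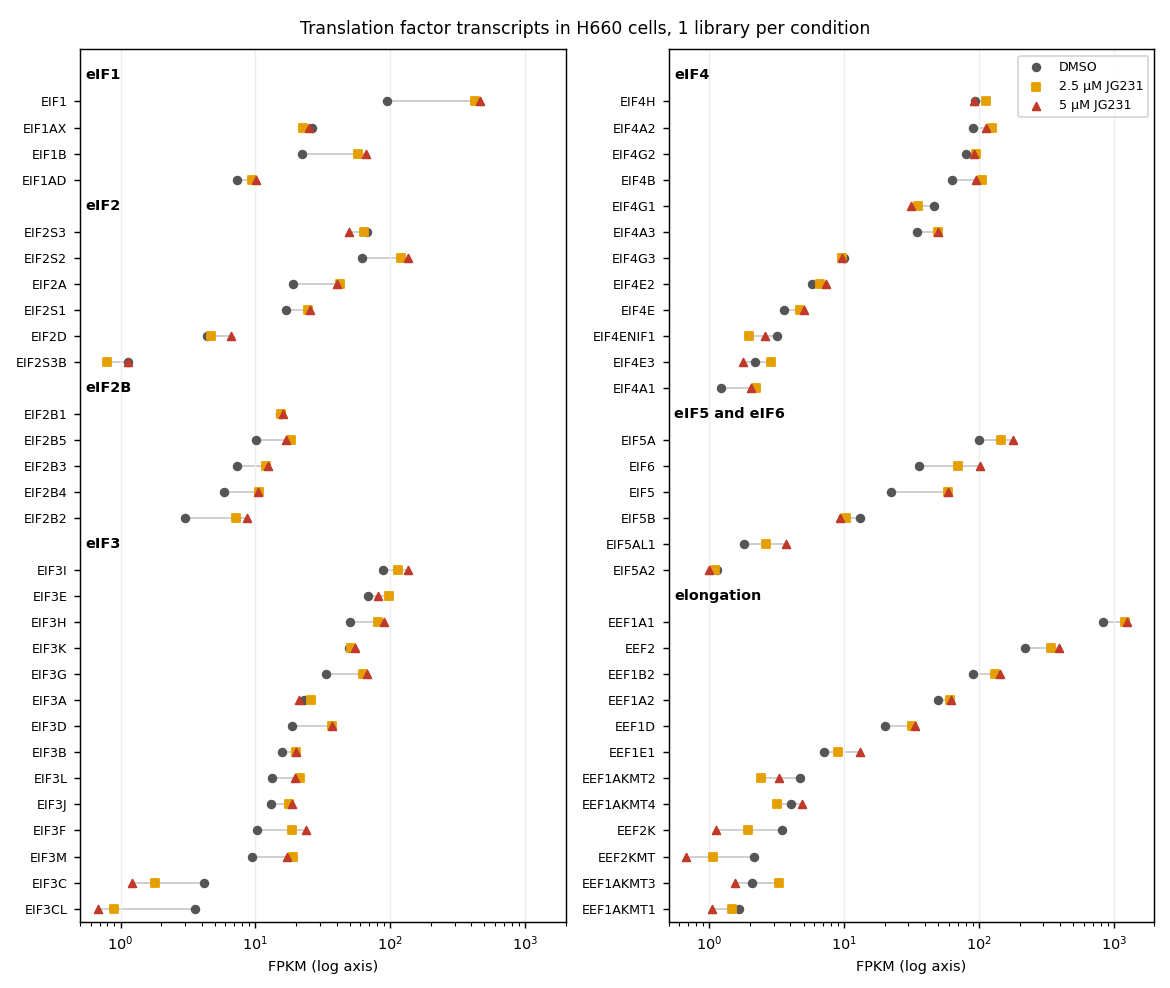
FPKM (log axis) of the 59 translation factors with a mean of at least 1 FPKM in the DMSO (grey circles), 2.5 μM (orange squares) and 5 μM JG231 (red triangles) libraries, grouped by factor and ordered by level in DMSO. EIF1, EIF1B, EIF5 and EIF6 lie apart from DMSO to the right, and EIF3C, EIF3CL, EEF2K and EEF2KMT to the left.

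Among the factors of start codon selection, the transcripts of eIF1 and eIF5 rose together. EIF1, which keeps the scanning ribosome in its open state and enforces the choice of start codon, lies at chr17:41688885-41692668 and had 95.1 FPKM with vehicle, 429 at 2.5 μM and 462 at 5 μM. That was 4.50-fold and 4.85-fold of DMSO, or 2.17 and 2.28 on the log2 scale beside a spread of 0.20, and it was the largest rise of any member at both doses. Both JG231 libraries stood far above DMSO and close to each other. EIF1B, a paralog of EIF1 with a closely similar protein, had 22.3 FPKM with vehicle, 57.9 at 2.5 μM and 66.6 at 5 μM, or changes of 1.37 and 1.57. The ratio of EIF1 to EIF1B went from 4.26 in DMSO to 7.40 and 6.93, so that EIF1 rose by more than its paralog. EIF5, the GTPase-activating partner of eIF2, had 22.4 FPKM with vehicle, 59.1 at 2.5 μM and 59.0 at 5 μM, or changes of 1.40 and 1.39. Each of these 3 rises was more than 6 times its spread, and under every scaling and pseudocount tried the lowest values at 5 μM were 1.44, 1.009 and 0.90.

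The EIF1AX row, of the same step, did not rise with them. EIF1AX, the X-linked gene of eIF1A, which steadies initiator tRNA in the decoding site with eIF1, had 26.5 FPKM with vehicle, 22.5 at 2.5 μM and 25.0 at 5 μM, changes of -0.24 and -0.08 that were within the spread of 0.25. Its processed pseudogene EIF1AXP1 was listed at 19.1, 34.8 and 25.2 FPKM, and gene and pseudogene rows together gave 0.33 and 0.14, so that the sign differs between the gene alone and the sum. EIF1AD, a protein with an eIF1A-like domain, had 7.31 FPKM with vehicle, 9.50 at 2.5 μM and 10.1 at 5 μM, changes of 0.37 and 0.46 beside a spread of 0.32. Over the 4 reported genes of eIF1, 3 rose and none fell at either dose, beside 36.4% and 36.5% of all genes that rose, with medians of 0.87 and 1.02. After rescaling 2 rose and 1 fell at each dose, with medians of 0.58 and 0.64.

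The 3 subunits of eIF2, which are held in equal numbers in the protein complex, diverged at the transcript level. EIF2S1, the α subunit that the stress kinases phosphorylate, had 17.0 FPKM with vehicle, 24.7 at 2.5 μM and 25.5 at 5 μM, changes of 0.53 and 0.58 beside a spread of 0.25. EIF2S2, the β subunit that binds eIF5 and eIF2B, had 61.6 FPKM with vehicle, 121 at 2.5 μM and 136 at 5 μM, changes of 0.97 and 1.14 beside 0.21. EIF2S3, the X-linked γ subunit that binds GTP and tRNA, went the other way with 67.6 FPKM with vehicle, 64.0 at 2.5 μM and 49.9 at 5 μM, or -0.08 and -0.44 beside 0.22. The β and γ transcripts were close to equal in DMSO, with a ratio of 0.911, and stood at 1.89 at 2.5 μM and 2.73 at 5 μM. EIF2S3 is 1 of the 7 members whose fall at 5 μM held under every scaling and pseudocount, and its start carries the pyrimidine run shown above. A link between the 2 was not tested. Its retrocopy EIF2S3B was near 1 FPKM in all 3 libraries (1.13, 0.790 and 1.13), with a spread as wide as 1.13.

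The 2 factors that can place initiator tRNA without the ternary complex behaved unlike each other. EIF2A had 19.1 FPKM with vehicle, 42.4 at 2.5 μM and 40.4 at 5 μM, changes of 1.14 and 1.08 beside a spread of 0.25. Both JG231 libraries were about equal and above DMSO. EIF2A overlaps SERP1 on the other strand, which was listed at 25.6, 47.8 and 68.2 FPKM, and the sources used here do not say if reads were counted by strand. EIF2D, which acts in reinitiation and ribosome recycling, had 4.37 FPKM with vehicle, 4.71 at 2.5 μM and 6.63 at 5 μM, so that it rose only at the higher dose (0.10 and 0.59, beside a spread of 0.44). EIF2S2 also has an antisense neighbour, RALY, at 44.7, 63.4 and 67.5 FPKM. In all, 32 of the 59 members overlap another gene above 1 FPKM, 27 of them on the other strand.

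Of the 5 genes of eIF2B, the exchange factor that recharges eIF2, 4 rose at both doses, beside 30.8% of all genes with a mean of at least 1 FPKM. EIF2B2, the β regulatory subunit, had 3.01 FPKM with vehicle, 7.16 at 2.5 μM and 8.65 at 5 μM, changes of 1.22 and 1.49 beside a spread of 0.39. The catalytic subunits EIF2B3 (γ) and EIF2B5 (ε) changed by 0.72 and 0.86 at 2.5 μM and by 0.77 and 0.74 at 5 μM. EIF2B4, the δ subunit, went from 5.87 FPKM with vehicle to 10.65 and 10.47, or 0.85 and 0.83. EIF2B1, the α subunit that joins the complex into a decamer, was level at 15.3, 15.5 and 15.9 FPKM. It was the most abundant of the 5 in DMSO, and the transcripts drew together: the highest was 5.08 times the lowest with vehicle, 2.56 times at 2.5 μM and 1.95 times at 5 μM, with EIF2B2 the lowest each time. Medians of 0.85 and 0.77 over the 5 genes became 0.56 and 0.39 after rescaling.

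The other genes around eIF2 include its kinases and its phosphatase, and the largest change among them lay in the latter. PPP1R15A (GADD34), the stress-induced subunit that targets protein phosphatase 1 to eIF2α, had 6.63 FPKM with vehicle, 80.8 at 2.5 μM and 103 at 5 μM, or 3.59 and 3.93 on the log2 scale. PPP1R15B, the constitutive targeting subunit, went from 26.5 FPKM with vehicle to 64.4 and 59.3, or 1.28 and 1.16. Of the catalytic subunits, PPP1CA changed by 0.09 and 0.61, PPP1CB by 0.48 and 0.49, and PPP1CC by 0.06 and -0.12. Of the 5 listed genes 3 thus rose at 2.5 μM and 4 at 5 μM, beside 36.4% and 36.5% of all genes. After rescaling 2 rose at either dose, beside 26.2% and 24.5% of the 13785 genes, and 1 fell at 5 μM, beside 55.4%. The kinases split: EIF2AK3 (PERK), the sensor of the endoplasmic reticulum, rose from 3.81 FPKM to 7.98 and 7.15, while EIF2AK2 (PKR) fell from 11.04 to 7.96 and 6.13, EIF2AK4 (GCN2) fell from 3.16 to 2.04 and 1.79, and EIF2AK1 (HRI) was level at 39.5, 39.5 and 38.2. The changes of EIF2AK4, -0.61 and -0.78, stood beside a spread of 0.67. After rescaling EIF2AK1 stood at -0.29 and -0.43. Of the 4 kinases 3 then fell at either dose, beside 51.2% and 55.4% of the 13785 genes. With the expression trend removed 3 fell at either dose. With the length trend removed 1 fell at 2.5 μM and 2 at 5 μM, and EIF2AK1 stood at 0.06 and 0.09. These are transcript levels, and the phosphorylation of eIF2α was not measured in the libraries.

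**Figure D4:**
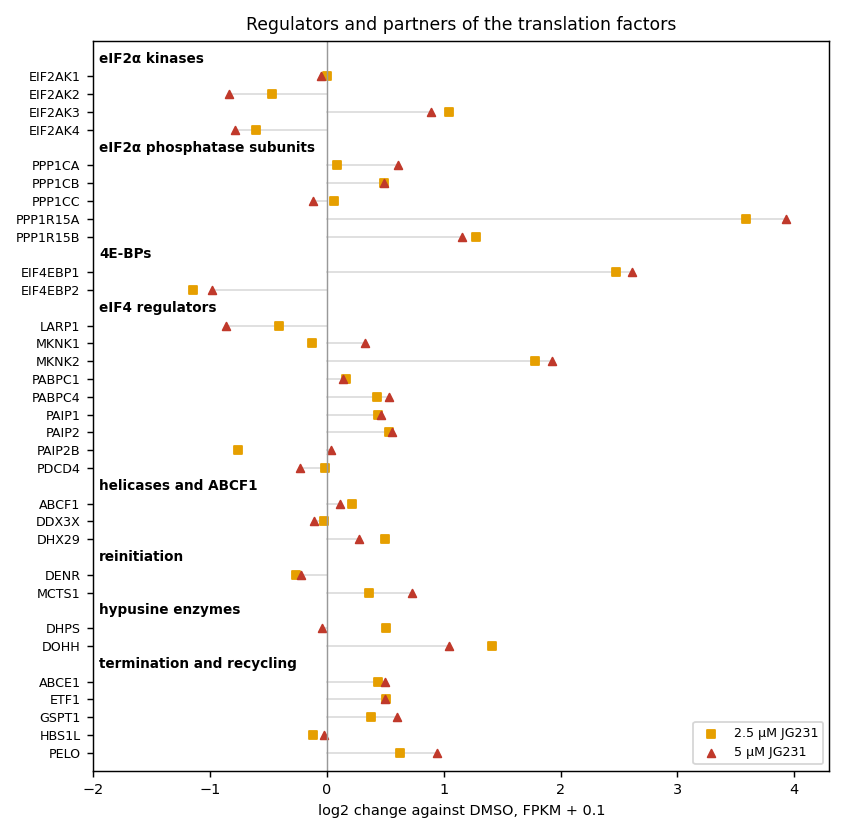
Log2 change against DMSO (FPKM + 0.1, horizontal axis) of regulators and partners of the translation factors, by list, for 2.5 μM (orange squares) and 5 μM JG231 (red triangles). PPP1R15A (3.59 and 3.93), EIF4EBP1 (2.47 and 2.61) and MKNK2 (1.78 and 1.92) lie farthest to the right, while PPP1CB, MKNK1, PAIP1 and DHX29, all above 0.25 at 5 μM, went below 0 in at least 1 rescaled or detrended version.

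The scaffold eIF3, which bridges the small subunit and eIF4G, was higher in most of its genes as deposited, with an exception in its c subunit. Of its 14 genes, 10 rose and 2 fell at each dose, beside 36.4% and 36.5% of all genes that rose, and the medians were 0.48 and 0.53. After rescaling 6 rose and 3 fell at 2.5 μM, 5 rose and 3 fell at 5 μM, and the medians were 0.19 and 0.16. The 2 that fell as deposited were EIF3C and its near-identical copy EIF3CL, and the medians over the other 12 genes were 0.60 and 0.59, or 0.31 and 0.21 after rescaling. EIF3F, a subunit of the octamer, showed the largest rise at 5 μM, with 10.4 FPKM with vehicle, 18.6 at 2.5 μM and 23.7 at 5 μM (0.83 and 1.18). EIF3G, the RNA-binding subunit beside the mRNA channel, had 33.5, 63.1 and 67.6 FPKM (0.91 and 1.01). EIF3D, which can bind the cap of selected mRNAs, had 18.6 FPKM with vehicle, 37.0 at 2.5 μM and 36.9 at 5 μM (0.99 at both doses). EIF3M, another octamer subunit, had 9.40, 19.0 and 17.3 FPKM (1.004 and 0.871), and EIF3H had 50.2, 80.7 and 90.1 (0.68 and 0.84). At 5 μM these 5 rises held under every scaling tried. With the pseudogene rows of EIF3F added, its changes were 0.96 and 1.35.

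The other 5 eIF3 genes that rose did not keep that call at 5 μM under every scaling. EIF3I, the most abundant subunit transcript in all 3 libraries, had 89.1, 113 and 137 FPKM (0.35 and 0.62), which became -0.17 and -0.04 once the expression trend was removed. EIF3L changed by 0.70 and 0.56, EIF3J, the loosely held subunit, by 0.45 and 0.51, EIF3E by 0.51 and 0.25, and EIF3B by 0.34 at both doses. The rises of EIF3B and EIF3E at 5 μM were reversed by rescaling, to -0.04 and -0.13. EIF3K, which is dispensable in several organisms, was level at 49.7, 51.0 and 54.9 FPKM, and EIF3A, the largest subunit, was at 22.8, 25.9 and 21.1 (0.18 and -0.11, beside a spread of 0.25).

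EIF3C, a core subunit of the octamer that contacts eIF1, fell from 4.17 FPKM with vehicle to 1.79 and 1.22, or -1.17 and -1.69 beside a spread of 0.65. EIF3CL fell from 3.56 FPKM to 0.889 and 0.686, or -1.89 and -2.22 beside 0.74. These were the largest falls of any members at 5 μM. Both genes lie on chromosome 16 and share nearly all of their exonic sequence, so the division of reads between them is uncertain. Their sum, 7.73 FPKM with vehicle, 2.68 at 2.5 μM and 1.91 at 5 μM (-1.49 and -1.96), does not depend on that division but would miss reads that were discarded as mapping to both. In DMSO the sum was already below the level of the other 12 subunits, whose lowest was EIF3M at 9.40 FPKM, and the effect of multiply mapped reads on it was not tested.

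Within eIF4, EIF4A2, EIF4A3 and EIF4B rose modestly at both doses and the scaffold EIF4G1 fell. EIF4G1, which joins eIF4E, eIF4A and eIF3, had 46.5 FPKM with vehicle, 35.0 at 2.5 μM and 31.2 at 5 μM, changes of -0.41 and -0.58 beside a spread of 0.23. EIF4G2 (DAP5), which lacks the eIF4E binding site and serves cap-independent initiation, had 79.8, 94.3 and 91.2 FPKM (0.24 and 0.19). EIF4G3 was level at 9.99, 9.64 and 9.65 FPKM. The 3 scaffold transcripts summed to 136 FPKM with vehicle, 139 at 2.5 μM and 132 at 5 μM, a total that was level as deposited and changed by -0.26 and -0.43 after rescaling. The ratio of EIF4G1 to EIF4G2, which no scaling of a library alters, went from 0.584 to 0.371 and 0.342.

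EIF4B, which stimulates the helicase, had 63.2 FPKM with vehicle, 105 at 2.5 μM and 94.3 at 5 μM (0.73 and 0.58). EIF4A2, the helicase paralog, had 89.6, 124 and 112 FPKM (0.47 and 0.32), and EIF4A3, the member of the exon junction complex, had 34.4, 50.0 and 49.3 (0.54 and 0.52). EIF4H, a relative of EIF4B, had 93.3, 112 and 92.0 FPKM, and its 0.27 at 2.5 μM as deposited became -0.02 after rescaling and -0.23 with the expression trend removed. The rises of EIF4B and EIF4A2 at 5 μM became -0.03 and -0.33 with the expression trend removed. EIF4A1, usually an abundant helicase, was listed at only 1.22, 2.21 and 2.02 FPKM (0.81 and 0.69, beside a spread of 0.67). Its pseudogene EIF4A1P10 was listed above it, at 4.14, 4.92 and 5.81 FPKM. A read-through gene, SENP3-EIF4A1, overlaps EIF4A1 on the same strand and was listed at 0. The level of EIF4A1 is therefore uncertain.

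The cap binders were listed at low values. EIF4E had 3.56 FPKM with vehicle, 4.70 at 2.5 μM and 5.03 at 5 μM, changes of 0.39 and 0.49 beside a spread of 0.45. Adding its pseudogene rows (11.6, 10.6 and 14.4 FPKM) gave 0.01 and 0.35. Those rows exceeded the gene in every library, so the level of EIF4E is uncertain. EIF4E2 (4EHP), which represses selected mRNAs, had 5.76, 6.67 and 7.34 FPKM (0.21 and 0.35), and its rise at 5 μM became -0.03 after rescaling. EIF4E3 was at 2.20, 2.85 and 1.77 FPKM, within its spread of 0.68 at both doses. EIF4ENIF1 (4E-T), the nuclear import partner of eIF4E, fell from 3.18 FPKM to 1.97 and 2.60, or -0.66 and -0.28 beside a spread of 0.58. Its fall at 2.5 μM ran from -0.95 to -0.40 over the scalings and pseudocounts, and at 5 μM the value ran from -0.65 to 0.09. The germline paralog EIF4E1B was listed at 0. The eIF4 medians of 0.31 and 0.26 over 12 genes became 0.03 and -0.12 after rescaling.

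Transcripts of 2 proteins that restrain eIF4E, EIF4EBP1 and EIF4EBP2, showed larger changes than EIF4E itself, and the related EIF4EBP3 was listed at 0 in every library. EIF4EBP1, the mTORC1-controlled repressor, had 25.5 FPKM with vehicle, 142 at 2.5 μM and 156 at 5 μM (2.47 and 2.61). Its ratio to the EIF4E row went from 7.16 to 30.3 and 31.0. That ratio leaves out the larger EIF4E pseudogene rows and is as uncertain as the level of EIF4E. EIF4EBP2 had 47.4 FPKM with vehicle, 21.4 at 2.5 μM and 23.996 at 5 μM (-1.15 and -0.98). The directions of both repressors were the same under all scalings. MKNK2, a kinase of eIF4E, rose from 31.0 FPKM to 107 and 118 (1.78 and 1.92), whereas MKNK1 changed by -0.13 and 0.32. LARP1, which binds the cap and TOP stretch of the mRNAs, fell from 25.2 FPKM to 19.0 and 13.8 (-0.41 and -0.87). With the length trend removed LARP1 stood at -0.20 and -0.47. PABPC1, the main poly(A)-binding protein, was within 0.25 at 296, 332 and 326 FPKM. Of the 9 listed eIF4 regulators, 4 rose and 2 fell at 2.5 μM, and 5 rose and 1 fell at 5 μM. Of all genes, 36.4% and 36.5% rose, and 43.4% and 45.1% fell. Rescaling turned the counts of regulators into 1 and 4, and 1 and 3. The shares of the 13785 genes were then 26.2% and 24.5% that rose, and 51.2% and 55.4% that fell.

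Late initiation factors diverged as well. EIF6, which keeps large subunits from joining too early and acts in their biogenesis, rose at both doses, with 36.1 FPKM with vehicle, 69.7 at 2.5 μM and 102 at 5 μM, or 0.95 and 1.49 beside a spread of 0.22. The 5 μM library was above the 2.5 μM library by 0.54. EIF5A, the hypusine-bearing factor that relieves stalled ribosomes, had 100.2 FPKM with vehicle, 146 at 2.5 μM and 179 at 5 μM (0.54 and 0.84), or 0.52 and 0.82 with its pseudogene rows added. With the expression trend removed its changes were 0.01 and 0.14. DOHH, the second enzyme of hypusine formation, rose from 5.33 FPKM to 14.3 and 11.1, and DHPS, the first, had 2.40, 3.45 and 2.32. EIF5B, the GTPase of subunit joining, fell from 13.2 FPKM to 10.3 and 9.36 (-0.36 and -0.49 beside a spread of 0.29). With the length trend removed EIF5B stood at -0.22 and -0.21, which no longer counts as a fall. The copy EIF5AL1 had 1.81, 2.62 and 3.68 FPKM, and EIF5A2 was level near 1 FPKM at 1.13, 1.10 and 0.988.

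Leaving out the modifying enzymes, all 6 measured transcripts of the elongation group rose at both doses as deposited, beside 30.8% of all genes. Their medians of 0.55 and 0.70 fell to 0.02 and 0.01 once the expression trend was removed. After rescaling 4 of the 6 rose at each dose. Over all 12 measured genes of the group, enzymes included, 7 rose and 4 fell at 2.5 μM, and 6 rose and 5 fell at 5 μM. Of all genes, 36.4% and 36.5% rose and 43.4% and 45.1% fell. EEF1A1, the tRNA carrier and most abundant member, had 826 FPKM with vehicle, 1209 at 2.5 μM and 1259 at 5 μM, changes of 0.55 and 0.61 beside a spread of 0.20, which became -0.08 and -0.26 with the expression trend removed. Of its 39 pseudogene rows, 3 exceeded 1 FPKM, and with them the changes were 0.52 and 0.61. EEF2, the translocase, had 219 FPKM with vehicle, 341 at 2.5 μM and 391 at 5 μM (0.64 and 0.84). Both JG231 libraries were above DMSO for each of these genes, as for EEF1B2, the nucleotide exchange subunit, at 90.5, 132 and 144 FPKM (0.55 and 0.67).

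EEF1D, the δ subunit of the exchange complex, had 20.1, 31.6 and 33.4 FPKM (0.65 and 0.73). EEF1E1 (AIMP3), a component of the multi-tRNA synthetase complex, had 7.08, 9.02 and 13.1 FPKM (0.34 and 0.88), with most of its rise between the doses. EEF1A2, the isoform of muscle and neurons, was expressed at 50.0 FPKM with vehicle, 60.9 at 2.5 μM and 61.6 at 5 μM (0.28 and 0.30), and this small rise turned to -0.01 and -0.08 after rescaling. The ratio of EEF1A1 to EEF1A2 was 16.5 with vehicle, 19.8 at 2.5 μM and 20.4 at 5 μM. EEF1G, the γ subunit, was listed at 0 in all 3 libraries. A read-through gene on the same strand, AP002990.1, overlaps it and had 0.239, 0.453 and 0.480 FPKM, so that no level can be given for EEF1G. The 8 measured factors of the TOP mRNA list (EEF1A1, EEF1B2, EEF1D, EEF2, EIF3E, EIF3F, EIF3H and EIF4B) all rose, beside 53.0% and 55.6% of protein-coding genes of at least 10 FPKM, with medians of 0.65 and 0.70. After rescaling 7 and 5 of the 8 rose. With the expression trend removed the medians were 0.13 and 0.01, and 7 and 5 of the 8 were above 0. Past 0.25, 2 and 3 of the 8 then rose, beside 36.8% and 38.3% of the 13785 genes, and 2 fell at 5 μM, beside 38.3%.

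Among the enzymes that modify elongation factors, the kinase and most of the methyltransferases had lower values at 5 μM. EEF2K, the kinase that inhibits eEF2, fell from 3.46 FPKM with vehicle to 1.93 at 2.5 μM and 1.12 at 5 μM, changes of -0.81 and -1.55 beside a spread of 0.71. The ratio of EEF2 to EEF2K was 63.1 with vehicle, 177 at 2.5 μM and 349 at 5 μM. EEF2K has a canonical transcript of 7398 bp, within the length class in which protein-coding genes had medians of -0.15 and -0.31. With the length trend removed, EEF2K stood at -0.60 and -1.14. EEF2KMT, a methyltransferase of eEF2, fell from 2.15 FPKM to 1.07 and 0.678 (-0.94 and -1.53, beside a spread of 1.04). EEF1AKMT2 fell from 4.74 FPKM to 2.44 and 3.27 (-0.93 and -0.52 beside 0.49), and EEF1AKMT1 had 1.67, 1.47 and 1.06 (-0.18 and -0.62 beside 0.90). EEF1AKMT3 and EEF1AKMT4, at 2.08, 3.28 and 1.55 and at 4.06, 3.20 and 4.83 FPKM, had no common direction at the 2 doses. Over the 5 methyltransferases 1 rose and 3 fell at 2.5 μM, and 4 fell at 5 μM, with medians of -0.33 and -0.52. Of all genes, 36.4% rose and 43.4% fell at 2.5 μM, and 45.1% fell at 5 μM. Protein-coding genes of 1 to 5 FPKM had medians of -0.27 and -0.37, and with the expression trend removed the methyltransferase medians were -0.19 and -0.06. These genes are near the depth limit, the lowest member value standing for about 34.1 fragments.

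The 2 JG231 libraries were close for most members. At 5 μM against 2.5 μM, 12 of 58 members were higher by more than 0.25 (20.7%) beside 26.8% of 14197 genes, and 10 were lower (17.2%) beside 30.1%. The spread is itself the robust SD of this difference among genes of like level, so that some genes exceed it by construction. It was exceeded upward by 7 of 59 members (EIF2D, EIF3F, EIF3I, EIF5A, EIF6, EEF1AKMT4 and EEF1E1; 11.9%) beside 16.9% of all genes, and downward by 6 (EIF2S3, EIF3A, EIF3E, EIF4H, EEF1AKMT3 and EEF2K; 10.2%) beside 18%. These shares were below the background, and no dose effect is read from them. EIF6 at 0.54 and EEF1E1 at 0.53 had the widest upward differences among members of at least 5 FPKM, and EIF2S3 at -0.36 the widest downward one. EIF1, EIF5, EIF2A and EIF3D, which rose strongly, differed by 0.11, 0.00, -0.07 and 0.00 between the doses.

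Taking all members, their FPKM summed to 2604 with vehicle, 4043 at 2.5 μM and 4244 at 5 μM, or 0.793%, 1.27% and 1.18% of all FPKM in the table. Of the FPKM without mitochondrial and small RNA genes, they made up 1.33%, 1.69% and 1.67%. Elongation genes made up 1231, 1797 and 1915 of these sums, mostly through EEF1A1. Termination and recycling factors were listed beside them for comparison: 4 of 5 measured genes rose at both doses, beside 30.8% of all genes, ETF1 (eRF1) by 0.51 and 0.50, GSPT1 (eRF3a) by 0.38 and 0.60, ABCE1 by 0.44 and 0.50, and PELO by 0.62 and 0.94, while HBS1L changed by -0.12 and -0.03. After rescaling, 1 of the 5 remained above 0.25 at each dose. The initiation helicases and ABCF1 mostly stayed within 0.25, with DDX3X at -0.02 and -0.11, ABCF1 at 0.22 and 0.12, and DHX29 at 0.50 and 0.27. Of the reinitiation partners, MCTS1 changed by 0.36 and 0.73 and DENR by -0.27 and -0.22.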

How the data were processed

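RNA-seq of H660 cells was analysed in 3 libraries, 1 per condition. The authors deposited gene-level FPKM values, which they obtained by alignment with HISAT and quantification with StringTie according to their methods. The same methods also name a Top Hat-Cufflinks pipeline. The processing notes of the submitters name HISAT2, featureCounts and GRCh38 (hg38). Versions, annotation and use of strand are not given in the sources used here. The doses and the 24 h were read from sample names and the methods.

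Rows were matched by identifier to GENCODE release 44 (58207 of 58735). The pseudocount of 0.1, the FPKM over 1 and the threshold of 0.25 follow the methods of the study. Applying the FPKM over 1 to either library was a reading made here, and the mean FPKM filter of 1 for medians was added here. Every member of at least 1 FPKM was named, which was the rule for named genes. Depth was taken from the smallest steps in FPKM times exon length over genes with 1 transcript, and fragments are approximate for the rest. No count model was used, since FPKM values are not counts. The columns held no authors' comparisons. RefSeq start windows were matched by symbol. Alternatives were 2 other pseudocounts (1 and 0.01), 2 other filters, centring on the median gene, rescaling to a total without mitochondrial and small RNA genes, removal of a lowess trend (fraction 0.3) over length or expression, leaving out members with near-identical copies, and a threshold of 1. The members and lists were chosen with earlier results of these data known. Scripts were tested on simulated data. Analyses ran in Python 3.11.15 with pandas 2.3.3, numpy 2.4.6 and statsmodels 0.14.6, and figures were drawn with matplotlib 3.10.9. Some marker genes are not reported here.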

Additional observations from a re-analysis of the deposited data

How the results depend on the processing

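Over the 10 alternatives, other pseudocounts moved no group median by more than the spread and no count by over 1.5 times. Removing the filter could change nothing, since the 2 members listed at 0 stayed out and no member lay between 0 and 1 FPKM. Centring shifted values by at most 0.00807. Of 16 medians (all members and 7 groups at each dose), 13 stayed above 0 throughout. The exceptions were eIF4 at 5 μM and elongation at both doses. No paired analysis was possible because each condition had 1 library, and for the same reason no replicate could be left out. The causes of the differences were not tested.

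As deposited, the medians at 2.5 and 5 μM were 0.32 and 0.59 for eIF2, 0.53 and 0.91 for eIF5 and eIF6, and 0.31 and 0.27 for elongation. With a mean of at least 10 FPKM, the medians were 1.37 and 1.57 for eIF1 at 2.5 and 5 μM, 0.75 for eIF2 at 2.5 μM and 0.67 for elongation at 5 μM. Then 29 members were higher and 2 lower at 2.5 μM, and 28 higher and 3 lower at 5 μM, out of 37 (78.4% and 75.7% higher). Of protein-coding genes at that level, 53.0% and 55.6% were higher and 20.6% and 21.4% lower. A threshold of 1 left 6 higher and 2 lower at 2.5 μM, and 9 higher and 4 lower at 5 μM.

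Rescaling without mitochondrial and small RNA genes gave, at 2.5 μM, medians of 0.16 for all members, 0.58 for eIF1, 0.0314 for eIF2, 0.56 for eIF2B, 0.19 for eIF3, 0.0288 for eIF4, 0.24 for eIF5 and eIF6 and 0.0247 for elongation, with 24 members higher and 17 lower. At 5 μM it gave 0.13, 0.64, 0.21, 0.39, 0.16, -0.12, 0.54 and -0.10 in the same order, with 22 higher and 19 lower. Of the members past 0.25 as deposited, the only ones whose changed signs are listed here and below, it turned EEF1A2 (-0.00674) and EIF4H (-0.0232) at 2.5 μM, and EEF1A2 (-0.0791), EIF3B (-0.0384), EIF3E (-0.13), EIF4A2 (-0.0575) and EIF4E2 (-0.0295) at 5 μM.

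With the length trend removed, the medians were 0.58 for eIF2B and -0.00362 for elongation at 2.5 μM, and 0.68 for eIF1, 0.45 for eIF2B and -0.18 for elongation at 5 μM. EEF1E1 (-0.0429) turned at 2.5 μM, and EEF1A2 (-0.0478), EIF3E (-0.0437), EIF4A2 (-0.00260), EIF4E2 (-0.23) and EIF4E3 (0.24) at 5 μM.

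With the expression trend removed, the medians at 2.5 μM were 0.18 for all members, 0.14 for eIF3 and -0.0287 for elongation, with 24 members higher. At 5 μM they were 0.14, 0.16 and -0.0265, with 0.74 for eIF1 and -1.66e-05 for eIF4. Turned at 2.5 μM were EEF1A1 (-0.0759), EEF1A2 (-0.15), EIF2S3B (0.0663), EIF3I (-0.17), EIF4A2 (-0.0390) and EIF4H (-0.23). Turned at 5 μM were EEF1A1 (-0.26), EEF1A2 (-0.23), EEF1AKMT3 (0.00474), EIF3E (-0.34), EIF3I (-0.0393), EIF4A2 (-0.33), EIF4B (-0.0334), EIF4E3 (0.11) and EIF4ENIF1 (0.0880).

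Without members that have near-identical copies, the medians were 1.37 for eIF1, 0.75 for eIF2 and -0.18 for elongation at 2.5 μM, and 1.57 for eIF1, 0.61 for eIF5 and eIF6 and -0.40 for elongation at 5 μM.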

Other observations

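The factors that serve translation inside mitochondria, encoded in the nucleus, did not share 1 direction. Of 10 listed genes, 6 were higher and 2 lower by more than 0.25 at 2.5 μM, and 4 were higher and 2 lower at 5 μM, beside 36.4% and 36.5% of all genes that were higher, with medians of 0.33 and -0.05 that became 0.04 and -0.43 after rescaling without mitochondrial and small RNA genes. TUFM, the mitochondrial counterpart of eEF1A, rose from 61.4 FPKM with vehicle to 89.9 at 2.5 μM and 93.9 at 5 μM (0.55 and 0.61). Its exchange factor TSFM changed by 0.45 at both doses, and GFM1, the translocase, by 0.35 and 0.55. GFM2, which acts in ribosome recycling, fell from 8.04 FPKM to 4.85 and 2.81 (-0.72 and -1.48). The initiation factor MTIF2 was level at -0.01 and -0.03.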
